A study of Mus musculus with 12 samples.

Results

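The ligands and receptors of the VEGF and angiopoietin pathways were followed in the hearts of mice given carbon tetrachloride (CCL4 in the labels) and of Control mice. The members were 10 genes chosen by name out of 31722 gene symbols in the deposited table: the ligands Vegfa, Vegfb, Vegfc and Angpt1, and the receptors Kdr, Flt1, Flt4, Nrp1, Tek and Tie1. The compound is a solvent that injures the liver, given here as a model of cirrhosis, and the question was how cirrhosis affects the heart. The CCL4 group held 6 hearts of C57BL/6J mice and the Control group held 6 hearts of the same strain. No transgene or deletion is named in the labels, and they give neither dose, duration, age nor sex; what the Control mice received is also not stated. Each heart gave 1 library, made with a stranded mRNA kit, and was deposited as RPKM, a read count divided by gene length and by the size of the library, so that levels of different genes can be set side by side per length.

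VEGF-A is the main growth factor for blood vessels and in the heart is made largely by cardiac muscle cells. It acts on endothelial cells, which line the vessels, through the receptor kinase Kdr, while Flt1 binds the same ligand tightly, signals weakly and can act as a trap. VEGF-B binds Flt1, VEGF-C binds Flt4, a receptor best known from lymphatic vessels, and Nrp1 is a co-receptor without a kinase. Angpt1, made by cells around the vessels and by other stromal and muscle cells, activates the kinase Tek (also called Tie2) and keeps vessels quiescent, and Tie1 is the partner receptor of Tek that has no angiopoietin ligand of its own.

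Promoter sequences are shown for 4 of the 5 members with the smallest p between the groups, since these members were all at lower means in CCL4 hearts. That of Tie1 is not printed, because 212 of its 250 bases lie in exons of the gene. Each is the 250 bases before the RefSeq transcription start on GRCm38.p6, on the strand of the gene, at chr17:46032378-46032627 (minus strand) for Vegfa, chr5:75978456-75978705 (minus) for Kdr, chr5:147726012-147726261 (minus) for Flt1 and chr4:94739039-94739288 (plus) for Tek. Capitals mark GGAA or its reverse complement TTCC, the core recognised by ETS factors, a family that includes the endothelial regulators Erg and Fli1.
Vegfa: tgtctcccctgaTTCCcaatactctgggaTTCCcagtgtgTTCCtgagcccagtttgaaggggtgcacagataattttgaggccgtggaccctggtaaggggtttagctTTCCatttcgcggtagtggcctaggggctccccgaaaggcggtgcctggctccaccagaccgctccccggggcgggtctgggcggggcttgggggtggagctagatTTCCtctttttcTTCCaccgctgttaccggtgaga
Kdr: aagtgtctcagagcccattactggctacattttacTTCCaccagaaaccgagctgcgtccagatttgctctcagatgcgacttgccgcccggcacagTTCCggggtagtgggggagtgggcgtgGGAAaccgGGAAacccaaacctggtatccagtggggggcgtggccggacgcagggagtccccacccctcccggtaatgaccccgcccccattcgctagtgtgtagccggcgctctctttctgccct
Flt1: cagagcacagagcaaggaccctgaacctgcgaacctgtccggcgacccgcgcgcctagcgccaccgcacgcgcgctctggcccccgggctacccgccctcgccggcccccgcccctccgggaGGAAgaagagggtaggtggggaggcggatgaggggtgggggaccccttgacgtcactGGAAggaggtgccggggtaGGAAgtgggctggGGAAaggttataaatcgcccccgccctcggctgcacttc
Tek: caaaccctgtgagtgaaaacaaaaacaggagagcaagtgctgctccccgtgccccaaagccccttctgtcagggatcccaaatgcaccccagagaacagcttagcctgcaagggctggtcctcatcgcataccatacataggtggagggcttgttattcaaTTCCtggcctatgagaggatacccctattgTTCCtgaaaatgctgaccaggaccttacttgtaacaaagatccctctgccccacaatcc
The promoter table matched 9 of the 10 members. GGAA, searched on both strands, occurred 6 times for Vegfa, 4 times each for Kdr and Flt1, 2 times for Tek and 7 times for Tie1. The 32851 promoters of the table had a median of 3, with at least 1 match in 93.4% of them. The letters GGGCGG, the GC box, occurred 2 times for Vegfa and Kdr, 3 times for Flt1 and 0 times for Tek, and were present in 32.7% of all promoters. ACGTG, a form of the core of the hypoxia response element, occurred 0 times in all 9 members' windows and in 16.6% of all promoters. Other forms of that core were not searched, nor were bases beyond the 250, so the absence of such an element cannot be read from this. The windows therefore shared the ETS core with most promoters. Fli1 itself was at 7.87 ± 1.58 RPKM in CCL4 hearts and 9.94 ± 1.04 RPKM in Control hearts, and Erg at 21.6 ± 4.14 and 25.0 ± 2.79 RPKM in CCL4 and Control hearts (SD, n = 6 each); neither passed the test described next.

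All 10 members met the expression filter and were tested together with all other genes that met it, by limma on log2(RPKM + 1), with p-values adjusted over all 14087 genes. None of the 10 passed at an adjusted p under 0.05, and of all genes 0% were called higher and 0% lower. The smallest adjusted p of any gene was 0.0731. At an unadjusted p under 0.05, 5 of the 10 members were lower (Vegfa, Kdr, Flt1, Tek and Tie1) and 0 were higher, where 8.58% of all genes were lower and 1.6% higher. Over all genes that was 226 higher and 1209 lower, against 766 higher and 822 lower after quantile normalization, 798 and 757 after scaling by median of ratios, and 642 and 592 with mitochondrial genes left out of the scaling; under each of these 5 members were lower and 0 higher. The median log2 fold change (CCL4 minus Control) of the members was -0.31 and that of all genes -0.05. In 9 of the 10 members the mean was lower in CCL4 hearts, as for 65.7% of all genes. For Vegfb and Flt4 that sign turned under other scalings. The exception was Vegfc.

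The hearts were not even in what they held. The atrial marker Myl7, a myosin light chain, ran from 0.811 to 306.6 RPKM in CCL4 hearts and from 9.47 to 419.2 RPKM in Control hearts, with CCL4 replicate 4 and Control replicate 1 highest in each group. Mitochondrial genes took 31.6% to 43.7% of the steps in CCL4 hearts, with replicates 2 and 1 highest (43.7% and 40.4%), and 29.4% to 37.8% in Control hearts. With these genes left out of the scaling the lower members were less negative. The log2 fold change was -0.64 against -0.73 for Kdr, -0.41 against -0.51 for Vegfa and -0.28 against -0.37 for Tie1. It was -0.23 against -0.31 for Flt1, -0.22 against -0.31 for Tek and -0.10 against -0.19 for Nrp1. Vegfb and Flt4 turned sign, as given below. Xist, a transcript of female cells, did not exceed 0.126 RPKM in 4 hearts, numbers 2 and 5 of each group. The relative depth ran from 26350400 to 63405760 steps of 1 read, which put 70 to 205 steps behind each value of Vegfc, the lowest member, and 20366 to 39435 behind each value of Vegfa. Pairs of libraries correlated at r = 0.944 to 0.990 over the tested genes, and nothing in the labels says that the mice were handled in batches.

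**Figure D1:**
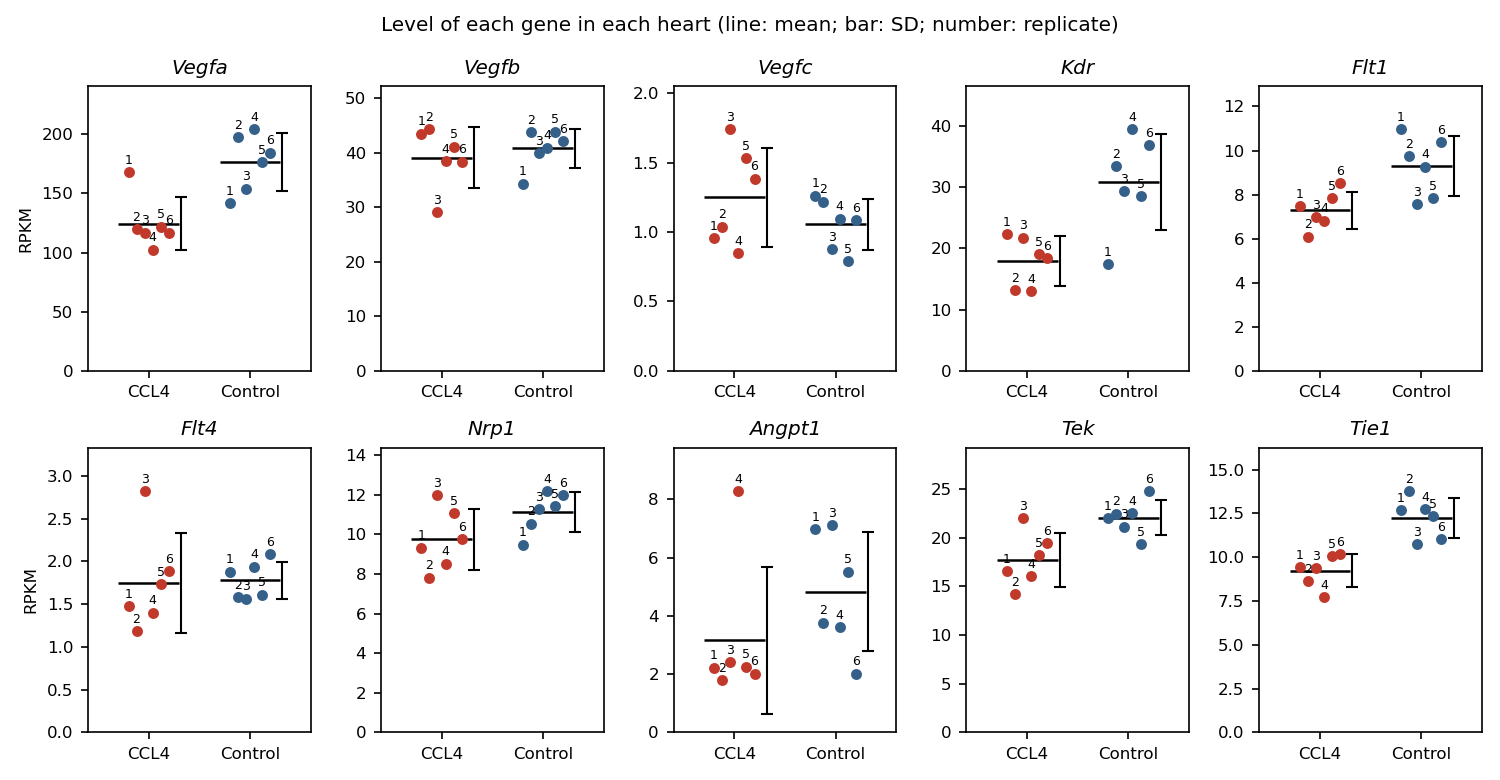
RPKM of the 10 members in each heart, with CCL4 hearts in red on the left and Control hearts in blue on the right of each panel; lines are means, bars are SD (n = 6) and numbers are replicates. Only in Tie1 do the groups not overlap, and single hearts join them in Kdr (Control replicate 1) and Vegfa (CCL4 replicate 1).

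The ligand Vegfa was the most abundant member in every heart. It was at 102.5, 118.3 and 168.0 RPKM (lowest, median and highest) in CCL4 hearts and at 141.6, 180.3 and 204.0 RPKM in Control hearts. The groups overlapped through CCL4 replicate 1, the highest of its group by far, which lay above Control replicates 1 and 3; the other CCL4 hearts, at 121.9 RPKM or less, lay below every Control heart. The mean was 124.3 ± 22.5 RPKM in CCL4 hearts and 176.3 ± 24.4 RPKM in Control hearts (SD, n = 6 each), which is 70.5% of the Control level. The log2 fold change was -0.51 (SE 0.13, limma adjusted p = 0.213), and all 6 CCL4 hearts lay below the Control median. Without CCL4 replicate 1 it was -0.60 with a limma adjusted p of 0.0445. Vegfa lies on chromosome 17 (46016993 to 46032369, GRCm38), and in GENCODE release M21 its exons share no base with another gene; the same held for the other members apart from Nrp1 and Angpt1.

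Vegfb, the ligand of Flt1 that in the heart is linked to fatty acid uptake by vessels, was the second most abundant member and did not follow Vegfa. It was at 29.0, 39.7 and 44.2 RPKM in CCL4 hearts and at 34.3, 41.5 and 43.8 RPKM in Control hearts. The ranges largely coincide, apart from CCL4 replicate 3 at the bottom. Its log2 fold change was -0.07 (95% confidence interval -0.30 to 0.16, limma adjusted p = 0.872), and it was 0.0054 with median-of-ratios scaling, 0.016 with quantile normalization and 0.025 with mitochondrial genes left out of the scaling.

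Vegfc, the lymphatic ligand, had the lowest level of the 10. It was at 0.850, 1.21 and 1.74 RPKM in CCL4 hearts and at 0.791, 1.09 and 1.26 RPKM in Control hearts. Of the CCL4 hearts, replicates 3, 5 and 6 exceeded every Control heart, and the other 3 lay inside the Control range, below its median. Its log2 fold change was 0.12 (95% confidence interval -0.10 to 0.34, limma adjusted p = 0.733). With limma's array weights, which give less weight to hearts far from the fit, it was 0.27 with an adjusted p of 0.0453. That fit called 770 genes higher and 1479 lower of 14087, where the main fit called 0. Without CCL4 replicate 3 the log2 fold change of Vegfc was 0.06.

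Kdr, the main signalling receptor of VEGF-A, had the most negative log2 fold change of the 10 with all hearts; without CCL4 replicate 4 (-0.65 against -0.81) or without Control replicate 6 (-0.67 against -0.73) that of Angpt1 was more negative. It was at 13.0, 18.7 and 22.3 RPKM in CCL4 hearts and at 17.4, 31.4 and 39.4 RPKM in Control hearts. Control replicate 1 lay among the CCL4 hearts, and the other Control hearts, at 28.5 RPKM and more, lay above every CCL4 heart. The mean was 17.95 ± 4.05 RPKM in CCL4 hearts, 58.3% of the 30.8 ± 7.79 RPKM in Control hearts (SD, n = 6 each). On the log2 scale the fold change was -0.73 (SE 0.19, 95% confidence interval -1.14 to -0.32), with a limma adjusted p of 0.229. Without Control replicate 1, the library richest in atrial markers, it was -0.88 with a limma adjusted p of 0.0376. In hearts with Xist it was -0.64 (4 CCL4 and 4 Control hearts) and in hearts without Xist -0.92 (2 and 2), and neither passed.

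Flt1, the trap receptor, was at 6.09, 7.23 and 8.52 RPKM in CCL4 hearts and at 7.57, 9.51 and 11.0 RPKM in Control hearts. All 6 CCL4 hearts lay below the Control median, and Control replicates 3 and 5 lay among them. The log2 fold change was -0.31 (SE 0.10, limma adjusted p = 0.332). The values count all transcripts of the gene, so the membrane receptor and its soluble form cannot be told apart. Nrp1, the co-receptor, was at 7.81, 9.54 and 11.97 RPKM in CCL4 hearts and at 9.48, 11.3 and 12.2 RPKM in Control hearts, with a log2 fold change of -0.19 (95% confidence interval -0.41 to 0.04, limma adjusted p = 0.56). Its groups overlapped over most of their range, with CCL4 replicates 2, 4 and 1 below every Control heart. The microRNA gene Mir1903 lies within Nrp1 and shares 0.818% of its exon bases.

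Flt4, the receptor of VEGF-C, was at 1.182, 1.604 and 2.82 RPKM in CCL4 hearts and at 1.57, 1.74 and 2.08 RPKM in Control hearts. CCL4 hearts lay on both sides of the Control range: replicate 3 was above every Control heart and replicates 1, 2 and 4 were below every one. Its log2 fold change was -0.03 (95% confidence interval -0.29 to 0.22, limma adjusted p = 0.947), and it was 0.021 with mitochondrial genes left out of the scaling. Of the lymphatic endothelial markers 4 of 5 tested had higher means in CCL4 hearts and 1 lower, where 65.7% of all genes were lower. The markers did not move together, and 0 passed over all genes. Ccl21a had a log2 fold change of 0.94 (unadjusted 95% confidence interval 0.16 to 1.72). Lyve1, the lower marker, had -0.36 (-0.68 to -0.05), and Prox1 had 0.03. The summed level was 34.1 to 154.2 RPKM in CCL4 hearts and 27.1 to 71.3 RPKM in Control hearts. Ccl21a alone was at 130.6 RPKM in CCL4 replicate 3, the heart with the sum of 154.2 RPKM. None of these markers was at 0 in any heart, and their part in the Flt4 and Vegfc values was not tested.

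**Figure D2:**
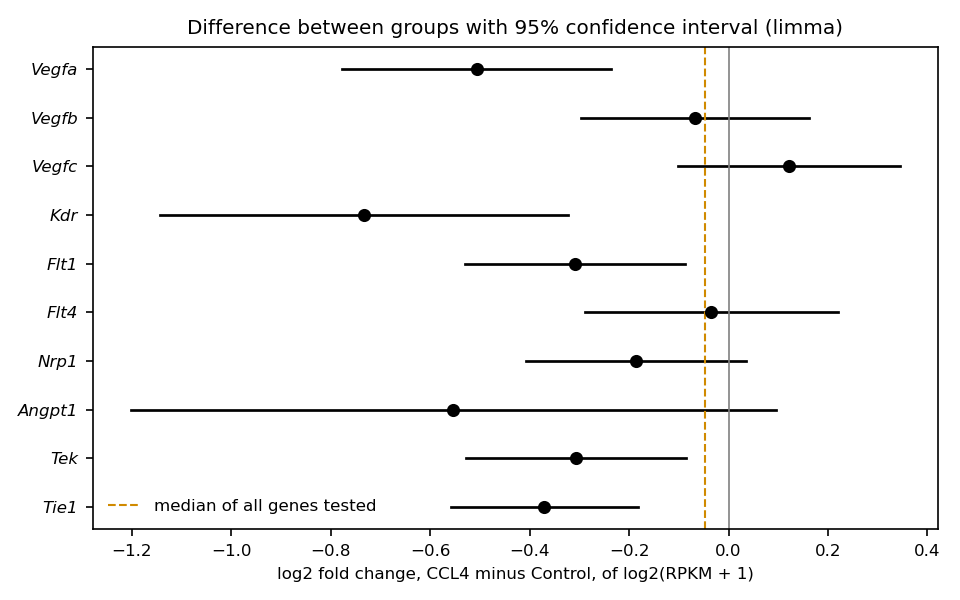
Log2 fold change of each member (CCL4 over Control, from log2(RPKM + 1) values) with its 95% confidence interval from limma; the dashed line is the median of all genes tested (-0.05). The intervals of Vegfa, Kdr, Flt1, Tek and Tie1 lie below 0 and the other 5 include it; these intervals are not adjusted for the number of genes.

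Tie1 was the member with the smallest p and the only one of the 10 whose groups did not overlap. It was at 7.71, 9.41 and 10.2 RPKM in CCL4 hearts and at 10.7, 12.5 and 13.8 RPKM in Control hearts. Every CCL4 heart thus lay below every Control heart, as in 0.724% of all genes. The mean was 9.24 ± 0.930 RPKM in CCL4 hearts and 12.2 ± 1.14 RPKM in Control hearts (SD, n = 6 each). With limma the log2 fold change was -0.37 (SE 0.09, limma adjusted p = 0.179).

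Tek, the angiopoietin receptor, was at 14.2, 17.4 and 22.0 RPKM in CCL4 hearts and at 19.4, 22.2 and 24.8 RPKM in Control hearts. CCL4 replicate 3 reached the level of Control replicates 1 and 3, and CCL4 replicate 6 that of Control replicate 5. The log2 fold change was -0.31 (SE 0.10, limma adjusted p = 0.333). Vegfa, Kdr, Flt1, Tek and Tie1, 5 of the 10 members, had all 6 CCL4 hearts below the Control median, which held for 11.1% of all genes.

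The ligand Angpt1 was the least even member, with a coefficient of variation of 79.6% in CCL4 hearts and 42.2% in Control hearts. It was at 1.80, 2.24 and 8.29 RPKM in CCL4 hearts and at 2.02, 4.65 and 7.12 RPKM in Control hearts. CCL4 replicate 4 had the highest level of all 12 hearts, while the other CCL4 hearts lay at 2.42 RPKM or less, next to Control replicate 6. The log2 fold change was -0.55 (95% confidence interval -1.20 to 0.10, limma adjusted p = 0.553), or -0.81 (adjusted p = 0.286) without CCL4 replicate 4. Angpt1 (chromosome 15, 42424723 to 42676977) shares 14.2% of its exon bases with Gm17473, a gene on the opposite strand that was at 0.244 ± 0.274 RPKM in CCL4 hearts and 0.335 ± 0.184 RPKM in Control hearts. The strand setting of the counting is not given in the sources used here, so reads of this stretch are uncertain.

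Angpt1 followed the atrial markers. Over the 12 hearts, with the mean of its own group taken from each, its log2 level correlated with the mean of 7 atrial markers at Pearson r = 0.912 (permutation p = 8e-05, adjusted over 20 relations 0.0016) and Spearman rho = 0.937 (permutation p = 4e-05, adjusted 0.0008). Without the 2 hearts farthest from the median of the atrial score, CCL4 replicate 4 and Control replicate 1, r was 0.812. With the atrial score as a covariate the log2 fold change of Angpt1 was -0.21 (limma adjusted p = 0.628). Of 6 tested atrial markers 5 had lower means in CCL4 hearts, beside 65.7% of all genes, 1 (Nppa) had a higher mean, and 0 passed the test. The summed level of the 7 markers ran from 839 to 11783 RPKM in CCL4 hearts and from 611 to 15118 RPKM in Control hearts. Most of each sum was Nppa, at 802 RPKM in CCL4 replicate 1 and 14184 RPKM in Control replicate 1. In CCL4 replicate 3 Nppa was at 9552 RPKM and Myl7 at 28.7 RPKM, so the sum did not follow Myl7. Of the markers 1 was at 0 in at least 1 heart.

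Kdr ran the other way, with r = -0.73 (permutation p = 0.00597, adjusted 0.0298) and rho = -0.685 (permutation p = 0.0241, adjusted 0.069). The relation rested on the hearts richest in atrial markers, since r was -0.383 without CCL4 replicate 4 and Control replicate 1. With the atrial score as a covariate the log2 fold change of Kdr was -0.90, with a limma adjusted p of 0.0463. Vegfa had r = -0.70 (permutation p = 0.0239, adjusted 0.0682), or -0.449 without these hearts, and a log2 fold change of -0.60 (limma adjusted p = 0.0574) with the covariate. Tie1 had -0.40 with it (limma adjusted p = 0.119). Kdr, Vegfa, Tie1, Vegfb, Flt1, Flt4, Nrp1 and Tek all had more negative fold changes with the covariate than without it, Flt1 and Tek at -0.33. Angpt1 was less negative and Vegfc less positive (0.10 against 0.12). The part of atrial tissue in these differences was not tested.

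**Figure D3:**
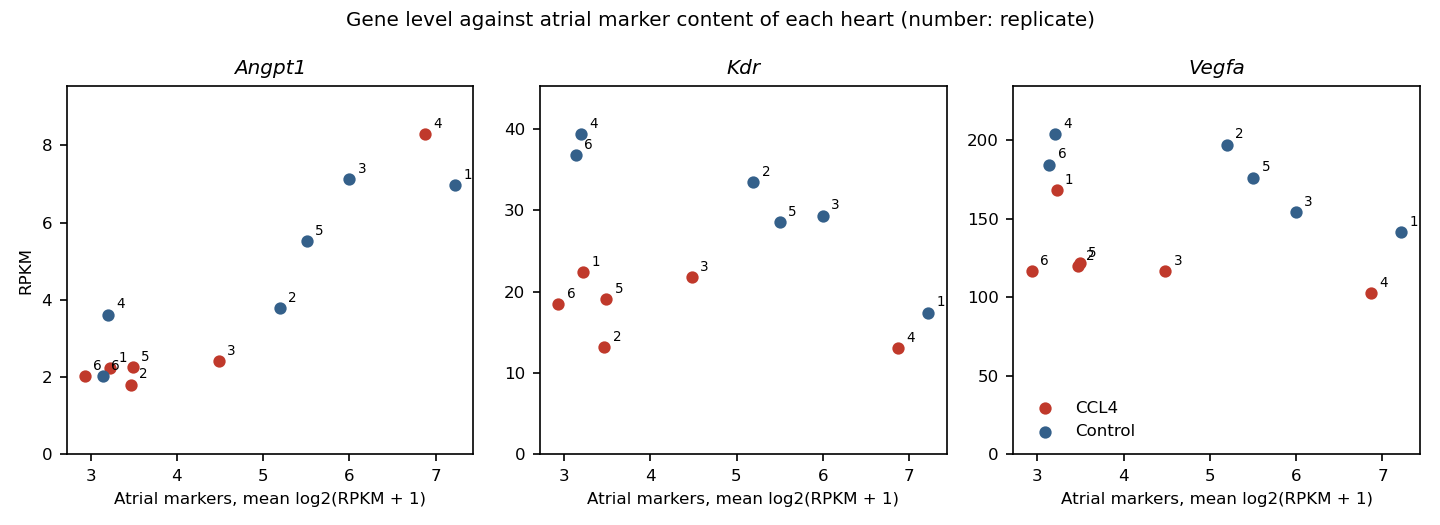
RPKM of Angpt1, Kdr and Vegfa against the mean log2(RPKM + 1) of 7 atrial markers in each heart; red points are CCL4 hearts, blue points are Control hearts and numbers are replicates. Angpt1 climbs with the atrial score across the Control hearts and, among the CCL4 hearts, mainly through replicate 4, and in Kdr the Control heart richest in atrial markers, replicate 1, lies at 17.4 RPKM among the CCL4 hearts.

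The order of levels was the same in both groups at the top, with Vegfa above Vegfb and Vegfb above Kdr. In CCL4 hearts Kdr (17.95 ± 4.05 RPKM) and Tek (17.7 ± 2.76 RPKM) did not differ beyond their spread. In Control hearts the mean of Kdr (30.8 ± 7.79 RPKM) exceeded that of Tek (22.0 ± 1.79 RPKM), with replicate 1 the exception (Kdr 17.4 and Tek 22.0 RPKM); this contrast was not tested. Nrp1 (9.74 ± 1.56 RPKM) and Tie1 (9.24 ± 0.930 RPKM) followed in CCL4 hearts and did not differ beyond their spread either; in Control hearts Tie1 (12.2 ± 1.14 RPKM) and Nrp1 (11.1 ± 1.005 RPKM) stood in the opposite order at a difference within 1 SD of Tie1. Flt1 came next in both groups, then Angpt1, Flt4 and Vegfc.

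Ratios between members within a heart do not depend on the scaling of the library, and 5 of them were compared with an exact two-sided permutation test over all splits of the 12 hearts, adjusted over the 5. None passed. The ratio of Vegfb to Vegfa came nearest, with a mean log2 ratio of -1.67 ± 0.255 in CCL4 hearts and -2.11 ± 0.133 in Control hearts (SD, n = 6 each; exact p = 0.0108, adjusted p = 0.0541). Vegfb thus stood at 0.315 of the Vegfa level in CCL4 hearts and 0.232 in Control hearts, and CCL4 replicates 1 and 3 lay among the Control hearts. The adjusted p was 0.0325 without CCL4 replicate 1, 0.0216 without CCL4 replicate 3, 0.0397 without Control replicate 1 and 0.0325 on the log2(RPKM + 1) scale. Without any other single heart it stayed above 0.05, at 0.0541 to 0.108. By an exact rank-sum test it was 0.0758.

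The log2 ratio of Flt1 to Kdr was -1.28 ± 0.281 in CCL4 hearts and -1.70 ± 0.515 in Control hearts (exact permutation p = 0.115, adjusted p = 0.195). Control replicate 1, at -0.67, lay above all other hearts, whereas the other Control hearts (-2.09 to -1.78) lay below every CCL4 heart (-1.64 to -0.93). Without that heart the difference was 0.62, against 0.42 with it, and the adjusted exact permutation p was 0.0325. The log2 ratio of Vegfa to Kdr was 2.81 ± 0.270 in CCL4 hearts and 2.55 ± 0.260 in Control hearts (exact permutation p = 0.117, adjusted p = 0.195), and the adjusted p was 0.0397 without Control replicate 1.

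The log2 ratio of Tie1 to Tek was -0.93 ± 0.186 in CCL4 hearts and -0.85 ± 0.191 in Control hearts (exact permutation p = 0.455, adjusted p = 0.455). The ranges coincide over most of their length, and the difference of -0.08 was -0.02 without CCL4 replicate 3. The log2 ratio of Angpt1 to Tek was -2.72 ± 0.876 in CCL4 hearts and -2.31 ± 0.790 in Control hearts (exact permutation p = 0.424, adjusted p = 0.455), with CCL4 replicate 4 highest of all. The difference of -0.41 was -0.76 without CCL4 replicate 4, -0.67 without Control replicate 6 and -0.26 without Control replicate 3, and none of these passed.

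**Figure D4:**
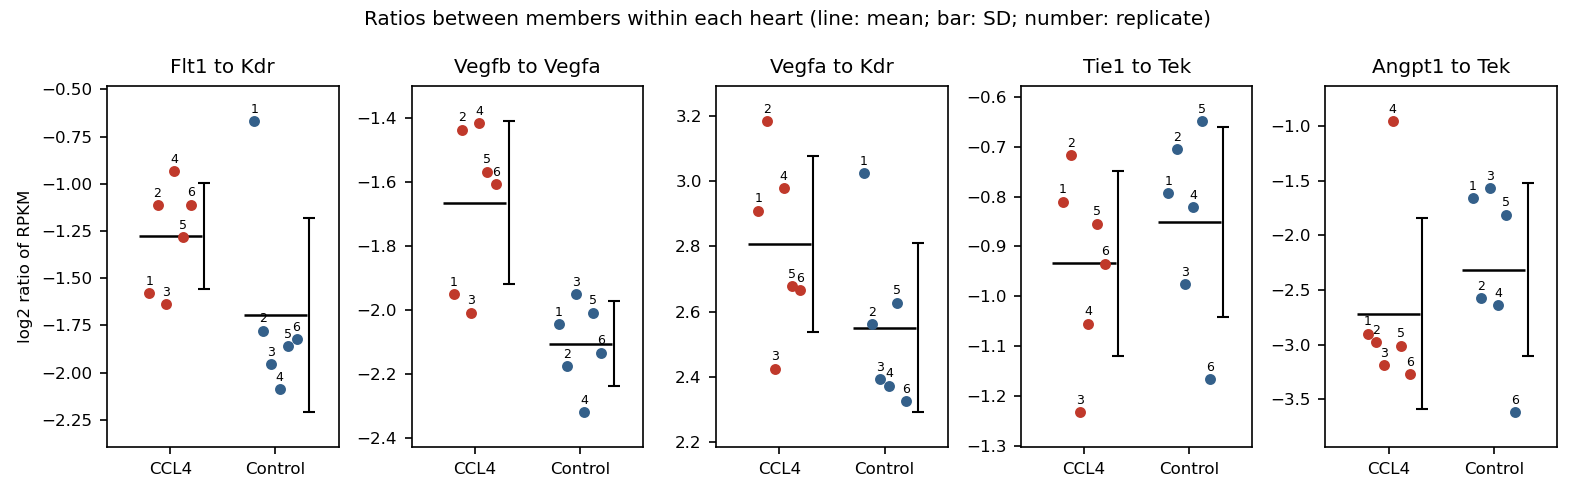
Log2 ratio of the RPKM of 2 members within each heart for 5 pairs, CCL4 hearts in red on the left and Control hearts in blue on the right; lines are means, bars are SD (n = 6) and numbers are replicates. Control replicate 1 stands above the other Control hearts in the ratios of Flt1 to Kdr and of Vegfa to Kdr, and CCL4 replicate 4 above the other CCL4 hearts in that of Angpt1 to Tek.

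In whole hearts fewer endothelial cells and less of an RNA per cell cannot be told apart, so the receptors were set beside markers of endothelial cells. Of 20 endothelial markers, all present in every heart, 18 had lower means in CCL4 hearts, 12 of them at an unadjusted limma p under 0.05, and 0 passed over all genes. Their median log2 fold change was -0.33, and their summed level ran from 218.1 to 325.8 RPKM in CCL4 hearts and from 307.6 to 367.6 RPKM in Control hearts. The transcription factor Sox7 (2.94 ± 0.372 RPKM in CCL4 and 4.64 ± 0.629 RPKM in Control hearts) and the junction protein Esam (13.3 ± 1.76 and 18.2 ± 1.43 RPKM in CCL4 and Control hearts) had the smallest p of the list. The share of lower means over all genes was 65.7%, and that of genes lower at an unadjusted p 8.58%.

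Relative to the mean of these markers in the same heart, Tek, Flt1 and Tie1 differed by less than 0.1 between the groups. The log2 difference from the marker mean was 0.86 ± 0.064 for Tek in CCL4 hearts and 0.84 ± 0.112 in Control hearts. For Flt1 it was -0.42 ± 0.202 in CCL4 hearts and -0.42 ± 0.174 in Control hearts, and for Tie1 -0.08 ± 0.179 in CCL4 hearts and -0.02 ± 0.102 in Control hearts. Kdr differed more, at 0.85 ± 0.204 in CCL4 hearts and 1.28 ± 0.413 in Control hearts, a difference of -0.42. Control replicate 1, at 0.47, lay below every CCL4 heart (0.60 to 1.196), and the other 5 Control hearts lay above all of them. On this scale the mean in CCL4 hearts exceeded that in Control hearts by 0.14 for Nrp1, 0.27 for Flt4, 0.27 for Vegfb and 0.56 for Vegfc. The difference was -0.16 for Vegfa and -0.38 for Angpt1. These values are given as a description with no test.

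Over the 12 hearts, with group means taken out, Flt4 and Tek had the highest Pearson r with the endothelial marker mean. Flt4 had r = 0.913 (permutation p = 0.00059, adjusted over 20 relations 0.0059) and rho = 0.783 (permutation p = 0.0101, adjusted 0.0546). Tek had r = 0.858 (permutation p = 0.00376, adjusted 0.0251) and rho = 0.783 (permutation p = 0.0109, adjusted 0.0546). The highest rho was that of Vegfc, 0.790 (permutation p = 0.0104, adjusted 0.0546). Without CCL4 replicates 3 and 2, the hearts farthest from the median of the marker score, r was 0.681 for Flt4 and 0.578 for Tek. Tie1 then had the highest r, 0.824, and Flt1 had 0.641. Vegfc (r = 0.767, permutation p = 0.0103, adjusted 0.0412) and Nrp1 (r = 0.767, permutation p = 0.0149, adjusted 0.0496) also passed by r and not by rho, with r = 0.725 and 0.406 without these hearts. Kdr (r = 0.542, adjusted permutation p = 0.116), Tie1 (0.55, adjusted 0.17) and Flt1 (0.445, adjusted 0.211) did not pass by r. Nor did they by rho, where Tie1 was at 0.706 (permutation p = 0.0166, adjusted 0.0578). Among the 45 pairs of members, Flt4 with Tek had r = 0.922 (permutation p = 0.00015, adjusted over 45 pairs 0.00675) and rho = 0.888 (permutation p = 0.00113, adjusted 0.0508), or r = 0.827 without CCL4 replicates 3 and 2. No other pair passed, and the ligand Vegfa with its receptor Kdr had the next smallest p at r = 0.745 (permutation p = 0.00228, adjusted 0.0513; rho = 0.748, permutation p = 0.00869, adjusted 0.196), with r = 0.66 without CCL4 replicate 1 and Control replicate 1. All values of 1 heart share a library and its scaling.

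Genes most like a member across the hearts were sought among 9633 genes at a mean of 1 RPKM or more, with group means taken out, and are given as a description with no test. For Kdr they were Dlc1 (r = 0.970), Fam102a (0.967) and the metalloprotease Adamts9 (0.961). For Vegfa they were Rnmtl1 (0.933), Fam213b (0.928) and Vwa3a (0.927). For Angpt1 they were the monoamine oxidase Maob (0.969), Atl2 (0.956) and the fatty acid synthase Fasn (0.952). Dlc1 was at 3.299 ± 0.585 RPKM in CCL4 hearts and 4.78 ± 0.731 RPKM in Control hearts, on the same side as Kdr.

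No gene of the rest of the pathway passed the test. Of 17 other ligands, receptors and modulators 11 were tested, with 8 lower and 3 higher means in CCL4 hearts, beside 65.7% of all genes lower. Their median log2 fold change was -0.12. At an unadjusted limma p under 0.05, where 8.58% of all genes were lower, 2 were lower. These were the semaphorin receptor Plxnd1 (13.3 ± 2.83 RPKM in CCL4 and 17.9965 ± 3.02 RPKM in Control hearts) and the co-receptor Nrp2 (3.98 ± 1.05 and 5.59 ± 1.303 RPKM in CCL4 and Control hearts). Vegfd, the second ligand of Flt4, was at 1.06 ± 0.634 RPKM in CCL4 hearts and 0.574 ± 0.21 RPKM in Control hearts, and Angpt2, which can oppose Angpt1 at Tek, at 2.16 ± 0.428 and 2.58 ± 0.438 RPKM in CCL4 and Control hearts.

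Of 36 tested signalling proteins below the receptors, 27 had lower means in CCL4 hearts, 8 of them at an unadjusted limma p under 0.05, with a median of -0.10, beside 65.7% and 8.58% of all genes. The nitric oxide synthase Nos3 (5.07 ± 0.613 RPKM in CCL4 and 7.82 ± 0.971 RPKM in Control hearts) and the caveolar coat protein Cav1 (17.9 ± 1.82 and 25.0 ± 1.46 RPKM in CCL4 and Control hearts) had the smallest p, with limma adjusted p of 0.0731 and 0.0828. Both are abundant in endothelial cells. Plcg1, the phospholipase that binds activated Kdr, was at 21.2 ± 2.98 RPKM in CCL4 hearts and 21.7 ± 2.88 RPKM in Control hearts.

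Of 22 tested endothelial target genes of VEGF, 16 had lower means in CCL4 hearts, beside 65.7% of all genes, with a median of -0.32. At an unadjusted limma p under 0.05, 12 were lower, where 8.58% of all genes were lower. Hbegf alone was higher at that p, where 1.6% of all genes were higher, and no gene of the list passed over all genes. Id1, an inhibitor of differentiation factors, was at 6.52 ± 1.24 RPKM in CCL4 hearts and 10.2 ± 1.39 RPKM in Control hearts (limma adjusted p = 0.0949). The metalloprotease Adamts1, whose groups did not overlap, as in 0.724% of all genes, was at 7.57 ± 1.75 RPKM in CCL4 hearts and 13.6 ± 3.98 RPKM in Control hearts. Many genes of this list, among them Klf4 and Dusp1, answer to other stimuli and are made by other cells of the heart.

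Upstream of Vegfa, 12 of 18 tested regulators had lower means in CCL4 hearts and 6 higher, with a median of -0.08; 1 was lower at an unadjusted limma p under 0.05. These shares are near or below the 65.7% and 8.58% of all genes. The 1 was Epas1, the hypoxia factor abundant in endothelial cells, at 51.0 ± 4.90 RPKM in CCL4 hearts and 58.3 ± 4.05 RPKM in Control hearts. Hif1a, the other hypoxia factor, was at 10.01 ± 3.41 RPKM in CCL4 hearts and 7.999 ± 0.847 RPKM in Control hearts. The 20 hypoxia target genes, from which Vegfa was left out, had a median of -0.05, the value of all genes, with 13 lower and 7 higher means. Vegfa, itself a target of this response, had -0.51.

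Markers of other cell types are read beside the 65.7% of all genes with lower means. Mural cell markers, of pericytes and smooth muscle, had lower means in CCL4 hearts in 9 of 12, near that share, 2 of them at an unadjusted limma p under 0.05, with sums of 336.0 to 467.4 RPKM in CCL4 hearts and 411.1 to 544.7 RPKM in Control hearts. Cardiomyocyte markers, of the cells that make most Vegfa, had lower means in 9 of 10. Of these, 3 were lower at an unadjusted limma p under 0.05, where 8.58% of all genes were lower. Their sums were 21586 to 32730 RPKM in CCL4 hearts and 30909 to 38561 RPKM in Control hearts. The lowest sum was that of CCL4 replicate 3, and the next CCL4 heart, replicate 5, had 29682 RPKM. Mesothelial markers, of the heart's outer lining, had lower means in 6 of 6, with a median of -0.48. Their sums were 0.639 to 17.02 RPKM in CCL4 hearts and 4.59 to 17.6 RPKM in Control hearts. Of them 1, Wt1, did not overlap between the groups, as in 0.724% of all genes. It was low, at 0.458 ± 0.125 RPKM in CCL4 hearts and 0.831 ± 0.126 RPKM in Control hearts (SD). The other mesothelial markers overlapped between the groups, and 2 were at 0 in at least 1 heart.

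Higher means were found for the other lists. Red cell markers had higher means in CCL4 hearts in 5 of 5, all 5 at an unadjusted limma p under 0.05, where 1.6% of all genes were higher, with sums of 156.6 to 244.5 RPKM in CCL4 hearts and 115.7 to 234.9 RPKM in Control hearts. Fibroblast markers had higher means in 9 of 10 (359.9 to 880.4 RPKM in CCL4 and 336.4 to 752.5 RPKM in Control hearts) and macrophage markers in 8 of 9 (21.9 to 125.5 and 28.1 to 36.3 RPKM in CCL4 and Control hearts). At an unadjusted limma p under 0.05, 2 fibroblast markers and 1 macrophage marker were higher. CCL4 replicate 3 had the highest sum of both lists. Macrophage sums were 53.3 and 69.3 RPKM in CCL4 replicates 5 and 6. In CCL4 replicates 1, 2 and 4 they were 37.5, 21.9 and 32.9 RPKM. None of the markers of these lists passed over all genes, none but the 2 mesothelial ones was at 0 in any heart, and their part in the members' values was not tested.

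**Figure D5:**
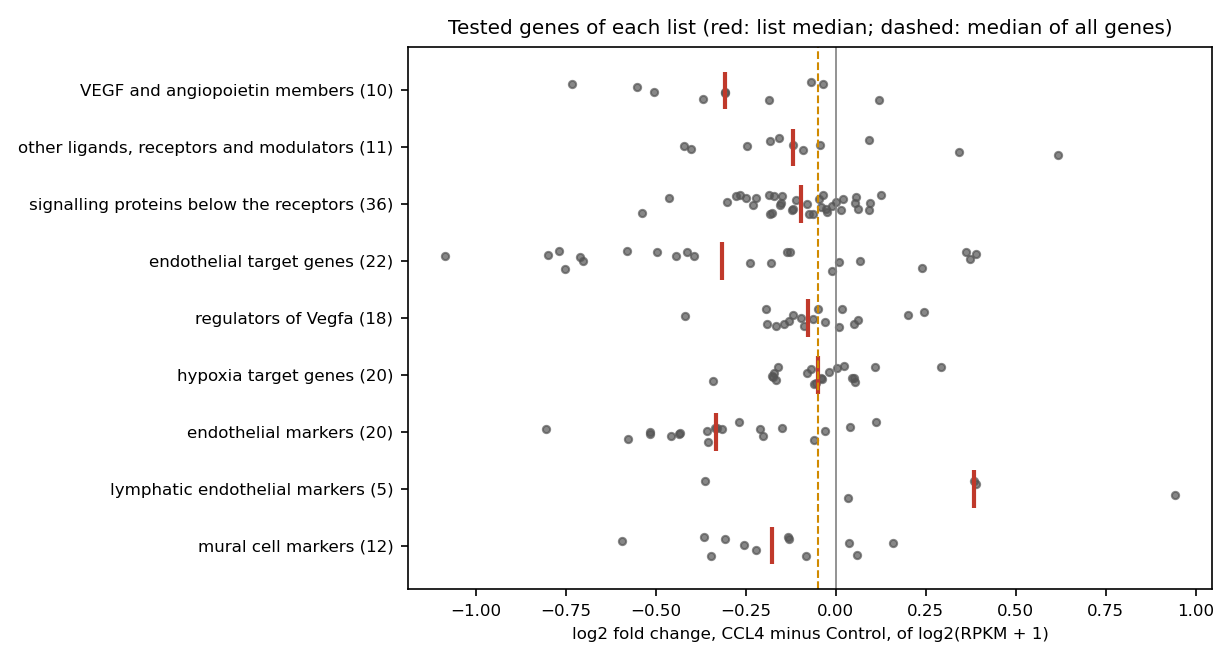
Log2 fold change (CCL4 over Control, from log2(RPKM + 1) values) of every tested gene of 9 lists, with the number tested in brackets; red lines are list medians and the dashed line is the median of all genes. The members (-0.31), endothelial target genes (-0.32) and endothelial markers (-0.33) have medians below that of all genes (-0.05), and the hypoxia targets lie on it.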

How the data were processed

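RNA of 12 mouse hearts was measured, 6 CCL4 and 6 Control, grouped by the sample titles. The authors deposited RPKM values for 31722 gene symbols; the genome build GRCm38 and the tools Subread 1.5.1, featureCounts and Trimmomatic 0.36 are named per the submitters' processing notes. Aligner, annotation release and strand setting: not given in the sources used here. Both the members and the lists were chosen with earlier results of these data known. All members are named. Of each list the text names genes of smallest p at a mean of at least 1 RPKM. Plcg1, Hif1a, Hbegf, Erg, Fli1, Wt1, Xist, Myl7, Nppa and Prox1 were added after their values were seen.

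The 14087 genes that reached 0.5 RPKM in 6 or more libraries were fitted with limma 3.58.1 in R 4.3.3 (lmFit, eBayes with trend) on log2(RPKM + 1), with Benjamini-Hochberg adjustment; a fold change on this scale understates that of low genes. Called means an adjusted p under 0.05. P-values measure the spread between these mice. Exact permutation tests (two-sided) can give no p below 0.00216. Relations used 100000 permutations within groups. RPKM times exon length (GENCODE M21, 95.4% of symbols matched) gave the step of 1 read: 92.6% to 93.8% of values up to 30 steps lay within 0.05 of a whole step. Steps are relative depths, and precision from them covers counting error only.

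On simulated data for 14087 genes, CCL4 against Control, the fit called 49.3% of genes changed 1.5-fold, 85.1% of those changed 2-fold, 97.0% of those changed 4-fold and 9 of 13887 unchanged genes. The simulated noise was normal and independent between genes, and only genes at a mean of at least 2 RPKM were changed. These rates therefore do not cover differences that many genes of a heart share, nor genes as low as Vegfc and Flt4. Alternatives covered the pseudocount, filter, scaling, weights, robust fit, replicate block, covariates, a rank-sum test and each heart left out; 4 more were chosen after seeing the data. Python 3.11.15, pandas 2.3.3, numpy 2.4.6, scipy 1.17.1 and matplotlib 3.10.9 were used. Promoter sequences are from RefSeq on GRCm38.p6.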

Additional observations from a re-analysis of the deposited data

Results flagged for a closer look

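In 30 groups of 6 values checked (10 members and 5 ratios in both groups), 4 had a highest heart whose gap to the next heart was too large a share of the whole range by Dixon's criterion, where chance gives about 1 in 20. Vegfa in CCL4 hearts had 168.0 RPKM in replicate 1, against 121.9 RPKM in the next heart. Angpt1 in CCL4 hearts had 8.29 RPKM in replicate 4, against 2.42 RPKM in the next heart, and the log2 ratio of Angpt1 to Tek in the same group had -0.95 in that heart, against -2.90. The log2 ratio of Flt1 to Kdr in Control hearts had -0.67 in replicate 1, against -1.78. CCL4 replicate 4 and Control replicate 1 are the hearts with the highest Myl7 of their groups (306.6 and 419.2 RPKM); the part of atrial tissue in these values was not tested.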

How the results depend on the processing

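No gene and no member passed the limma test with all hearts as deposited. Over all genes the count was 3 with TPM scaling, 2249 with array weights (770 higher, 1479 lower), 20 with the atrial covariate, 1 without the 2 libraries highest in atrial markers, 323 without both libraries numbered 1 and 98 in hearts without Xist, and 0 to 47 with each heart left out in turn (47 without CCL4 replicate 1, 31 without Control replicate 1, 2 without CCL4 replicate 6, 1 without CCL4 replicate 4). Of the members, 5 passed with array weights (Vegfa, Kdr, Tek and Tie1 lower, Vegfc higher), 1 with the atrial covariate (Kdr), 2 without both libraries numbered 1 (Kdr at -0.95 and Vegfa at -0.66), and 0 to 1 with each heart left out (Vegfa without CCL4 replicate 1, Kdr without Control replicate 1). An exact rank-sum test called 0 genes, with 1269 genes and 5 members at an unadjusted p under 0.05.

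Vegfa, Kdr, Flt1, Nrp1, Tek, Tie1 and Angpt1 kept a lower mean, and Vegfc a higher one, in every alternative run for them; Kdr ran from -0.95 to -0.64. Vegfb turned to 0.0054 with median-of-ratios scaling, 0.016 with quantile normalization, 0.025 with mitochondrial genes left out and 0.013 without CCL4 replicate 3 (-0.12 to 0.013 with each heart left out). Flt4 turned to 0.0034 with median-of-ratios scaling, 0.021 with mitochondrial genes left out, 0.027 without CCL4 replicate 2, 0.00013 without CCL4 replicate 4, 0.012 without the 2 libraries highest in atrial markers and 0.0024 without both libraries numbered 1 (-0.13 to 0.027 with each heart left out). The filter at a mean of 2 RPKM left out Vegfc and Flt4. The cause of these turns was not tested.

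The ratio of Vegfb to Vegfa was 0.44 (adjusted p = 0.0325) as a difference of log2(RPKM + 1), and 0.39 to 0.51 with each heart left out; that of Flt1 to Kdr 0.34 to 0.62, that of Vegfa to Kdr 0.18 to 0.35, that of Tie1 to Tek -0.15 to -0.02 and that of Angpt1 to Tek -0.76 to -0.26. The rank-sum test changed no ratio's call.

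With the replicate number as a block 0 genes and 0 members passed, Kdr again at -0.73 (limma adjusted p = 0.6), and the ratio of Vegfb to Vegfa had an adjusted sign-flip p of 0.312. The deviations of same-numbered hearts correlated at r = -0.474 to 0.232. The hearts without Xist carry the same numbers in both groups. The labels do not say whether the numbers pair the mice, and these correlations cannot exclude it. At 70 to 205 steps per value, Vegfc is the member that depth limits most.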
